A study of Mus musculus with 3 samples.

Results

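Erythroid genes are genes used chiefly by red blood cells and their precursors. Those described here were Hba-a1, Alas2, Slc4a1, Klf1, Ahsp and Epb42, chosen by name as known erythroid genes, with earlier results of these data known. On the arrays used, 5 of the 6 had a probe whose transcript accession carried the gene's symbol in RefSeq, out of 20577 genes named in this way. Each of the 5 had 1 probe, printed as 1 spot. Ahsp, whose product holds free alpha globin until it pairs with beta globin, was not matched to a probe and was not analysed here.

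Expression was measured in 3 RNA pools from female mice, each made from 5 samples and hybridised to 1 one-colour array labelled with Cy3. MF were primary fibroblasts grown from spleens remodelled with SiO2, given the control lentivirus LV-NC and collected after 14 days. iHep were fibroblasts of the same origin given LV-3TF, a lentivirus with 3 transcription factors, and also collected after 14 days as hepatocyte-like cells. PH were primary hepatocytes taken straight from isolation, with no virus or culture period given, and served as the positive control. Strain and age were not given in the sources used here. The RNA preparation described for all 3 pools came from a blood kit that lyses red and white cells in separate steps. It was followed by GLOBINclear, a capture step that takes alpha and beta globin message out of the RNA. No array of RNA before that step was analysed here, so how much globin message it left was not measured.

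Red blood cells mature from marrow progenitors, and in the mouse also in the spleen, under the control of GATA1, TAL1 and KLF1. KLF1 binds CACCC boxes and GATA1 binds GATA words in the control regions of globin, heme and membrane genes, which are then used together. Maturing cells fill with hemoglobin, build heme in their mitochondria, and lay a spectrin skeleton under a membrane rich in the anion exchanger band 3. Reticulocytes still carry globin message when they enter the blood, so tissue that holds blood can carry erythroid RNA.

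The region just before the start site is shown for the members for which RefSeq gave it, because erythroid genes are known to share such control words. Slc4a1 and Ahsp had no such sequence, and Epb42, which is shown, gave no signal on any array. Among the members, the windows shown were therefore not picked by the differences below. The members themselves were chosen with earlier results of these data known. Each sequence holds the 250 bases before the annotated start in GRCm38.p6, read on the gene's own strand. Capitals mark every match on either strand to a GATA word (GATA with A or T before it and A or G after it), to CACCC, to CCAAT and to TATAA. Neighbouring matches run together where they touch or overlap.
Hba-a1, chr11:32283422-32283671, plus strand: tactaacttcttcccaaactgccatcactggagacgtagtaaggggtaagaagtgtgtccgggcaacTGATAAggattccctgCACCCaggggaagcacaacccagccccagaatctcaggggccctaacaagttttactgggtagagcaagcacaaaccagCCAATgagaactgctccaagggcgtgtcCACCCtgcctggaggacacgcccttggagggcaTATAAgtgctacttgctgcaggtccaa
Alas2, chrX:150547167-150547416, plus strand: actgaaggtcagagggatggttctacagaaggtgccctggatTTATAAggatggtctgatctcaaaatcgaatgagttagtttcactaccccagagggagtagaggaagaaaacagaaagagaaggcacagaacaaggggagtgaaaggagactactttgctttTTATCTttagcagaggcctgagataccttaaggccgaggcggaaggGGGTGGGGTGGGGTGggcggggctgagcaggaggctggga
Klf1, chr8:84901732-84901981, plus strand: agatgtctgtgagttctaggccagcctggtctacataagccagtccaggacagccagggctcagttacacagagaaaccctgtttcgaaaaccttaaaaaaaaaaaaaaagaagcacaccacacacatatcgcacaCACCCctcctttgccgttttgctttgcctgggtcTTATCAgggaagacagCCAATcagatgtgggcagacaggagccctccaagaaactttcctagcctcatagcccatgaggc
Epb42, chr2:121036878-121037127, minus strand: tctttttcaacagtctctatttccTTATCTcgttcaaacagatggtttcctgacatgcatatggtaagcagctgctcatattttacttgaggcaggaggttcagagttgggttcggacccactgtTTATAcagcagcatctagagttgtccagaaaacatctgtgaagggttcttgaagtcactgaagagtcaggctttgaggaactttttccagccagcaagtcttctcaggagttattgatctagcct
All 4 windows held 1 GATA word, against 26.5% of 32851 RefSeq promoter windows of the same length. In Hba-a1 it read TGATAA and lay 183 to 178 bases before the start. In Klf1 it lay 80 to 75 bases before the start, in Alas2 86 to 81 and in Epb42 226 to 221, each on the opposite strand. CACCC occurred at 2 places in Hba-a1, at 1 in Klf1 and at 3 adjoining places on the opposite strand of Alas2, and 52.0% of all windows held it. CCAAT, held by 33.8% of all windows, was found in Hba-a1 and Klf1. TATAA, held by 22.8%, lay 27 to 23 bases before the start of Hba-a1, was also in Epb42, and was matched in Alas2 on both strands by the same overlapping letters. These matches describe letters in the sequence, not sites where a factor was measured.

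The members with a comparable signal, 4 in all, were at least 2-fold higher in PH than in MF and at least 2-fold lower in iHep than in PH: the globin gene Hba-a1, the heme enzyme gene Alas2, the band 3 gene Slc4a1 and the transcription factor gene Klf1. Epb42 gave no signal, and Alas2 could be compared only through its signal in PH and so had to be higher there. These are 4 of the 4 that could be compared, where 30.8% of the 17722 genes compared were 2-fold higher in PH than in MF (25.4% were lower), and 35.9% of 17926 were 2-fold lower in iHep than in PH (23.3% were higher). At 8-fold, the same 4 passed for PH over MF (background 10.8% higher and 5.43% lower) and 3 of 4 for iHep under PH, Klf1 being the exception (background 12.9% lower and 4.55% higher). Between iHep and MF, 0 of 3 members passed 2-fold in either direction, where 19.9% of 17092 genes were higher and 23.4% lower, and 0 of 3 passed 8-fold, where 2.67% were higher and 6.77% lower. The median log2 difference of the members was 5.95 for PH minus MF (0.04 over all genes) and -6.18 for iHep minus PH (-0.29 over all genes). For iHep minus MF it was 0.02 (0.00 over all genes). Without Alas2, the 3 members with signal on both arrays had medians of 3.43 for PH minus MF and -3.57 for iHep minus PH. Over all genes that rule gave -0.18 and -0.15. The 3 comparisons use the same 3 arrays, so each shares an array with the others and none is independent of the rest. The members were chosen with earlier results of these data known, so their counts beside all genes are no independent support.

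With 1 array per group there was no replicate, so no test was made and each difference compares arrays, not conditions. Signals are given as spot intensity and as a level, the log2 of the signal minus the log2 of the array's 75th percentile, so 75% of the spots used on an array lie below a level of 0. Spots printed repeatedly on each array gave an SD of 0.13 to 0.143 for the log2 difference of single spots, which covers spot noise alone. The 75th percentile was 544.3 in MF, 3751.5 in iHep and 2080.9 in PH, and 14997, 16361 and 17379 of the 20577 genes were well above background by the scanner software's call. MF was scanned apart from iHep and PH, so scan and group cannot be told apart in a comparison with MF. In pooled RNA, fewer red cell precursors and less of a message in each cannot be told apart.

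**Figure D1:**
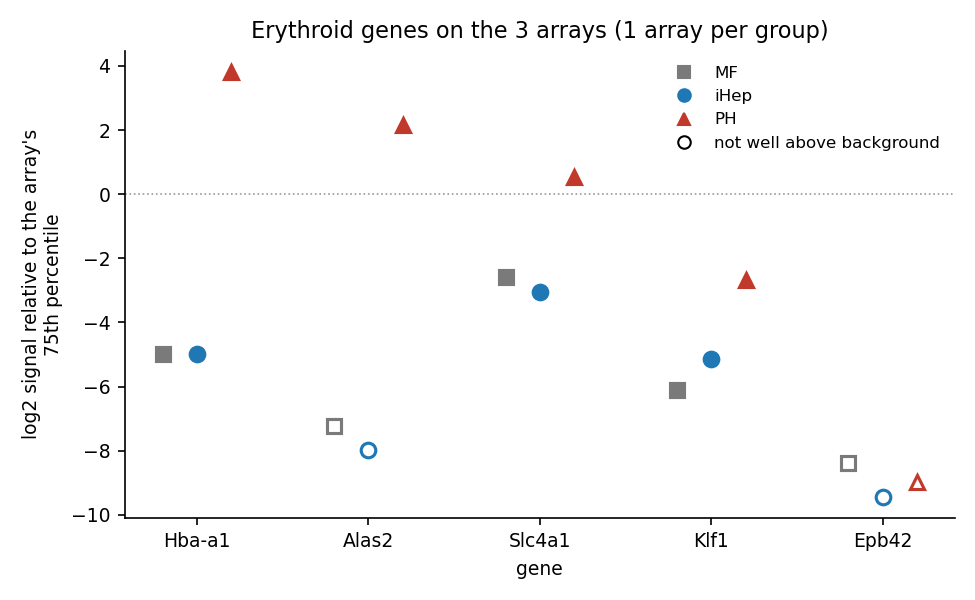
Level of each member on the 3 arrays (vertical axis, log2 signal relative to the array's 75th percentile; horizontal axis, gene; 1 point per array, open where the spot was not well above background). PH lay above MF and iHep for Hba-a1, Alas2, Slc4a1 and Klf1, and Epb42 was open on every array.

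Hba-a1 encodes the alpha chain of adult hemoglobin and is a direct target of the globin removal. Its spot read 17.1 in MF, 119.5 in iHep and 29259.6 in PH, all well above background. On the level scale these were -4.99, -4.97 and 3.81. PH stood alone, and MF and iHep lay together. The difference between PH and MF was 8.80 on the log2 scale, 446.6-fold, with 98.64% of the compared genes below it. iHep was 441.4-fold lower than PH. iHep minus MF was 0.02 with an error of 0.24 from the software's spot error, so these arrays did not separate iHep from MF for this gene. With another background correction (normexp, which adds 50 to every signal, more than the MF intensity of 17.1) iHep minus MF became -1.37.

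Alas2 encodes the red cell form of aminolevulinate synthase, the enzyme that starts heme synthesis in erythroid cells, and it is no target of the globin capture. Its intensity was 3.6 in MF and 14.9 in iHep, neither well above background, and 9332.9 in PH, a level of 2.17. Only PH gave a reading, a pattern shared by 1031 of the 20577 genes (5.01%). Since the dim arrays give only a limit, PH was at least 354.4-fold higher than MF and at least 718.8-fold higher than iHep. These limits take each dim array's lowest level well above background, -6.30 for MF and -7.32 for iHep, as the reading. No fold was formed between iHep and MF. With normexp the PH minus MF difference was 5.42 on the log2 scale in place of 8.47.

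Slc4a1 encodes band 3, the chloride and bicarbonate exchanger that anchors the red cell skeleton. Its spot gave 90.3 in MF, 456.1 in iHep and 3003.6 in PH, and all 3 were well above background. The levels were -2.59, -3.04 and 0.53, so MF and iHep held a clear signal of a gene named for red cells, and PH was higher than both. PH was 8.70-fold higher than MF, a log2 difference of 3.12 with a software error of 0.21, above 89.88% of compared genes. iHep was 11.87-fold lower than PH. It was 1.365-fold lower than MF (-0.45 on the log2 scale, software error 0.21), which lies within 2-fold.

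Epb42 encodes a membrane protein that ties band 3 to the ankyrin and spectrin skeleton. Its spot read 1.6 in MF, 5.4 in iHep and 4.1 in PH, with a software error of 99.55% to 99.66% of the signal. None was well above background, as for 2381 of the 20577 genes (11.57%), so no fold was formed. A probe that gives no signal on any array does not show whether the message was there.

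Klf1 encodes the zinc finger factor that switches on beta globin and many red cell membrane genes. Its intensity was 7.9 in MF, 106.3 in iHep and 325.3 in PH, called well above background on each array, although the MF reading lay only just over that array's lowest such signal of 6.888. The levels were -6.11, -5.14 and -2.68, with PH highest and MF lowest. PH was 10.79-fold higher than MF (log2 difference 3.43, software error 0.35) and 5.516-fold higher than iHep. iHep was 1.957-fold higher than MF, just inside the 2-fold limit (log2 difference 0.97, software error 0.36). With normexp, whose offset of 50 is larger than the MF intensity, PH minus MF was 0.65, which is 1.565-fold and no longer past 2-fold, and iHep minus MF turned to -1.27.

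**Figure D2:**
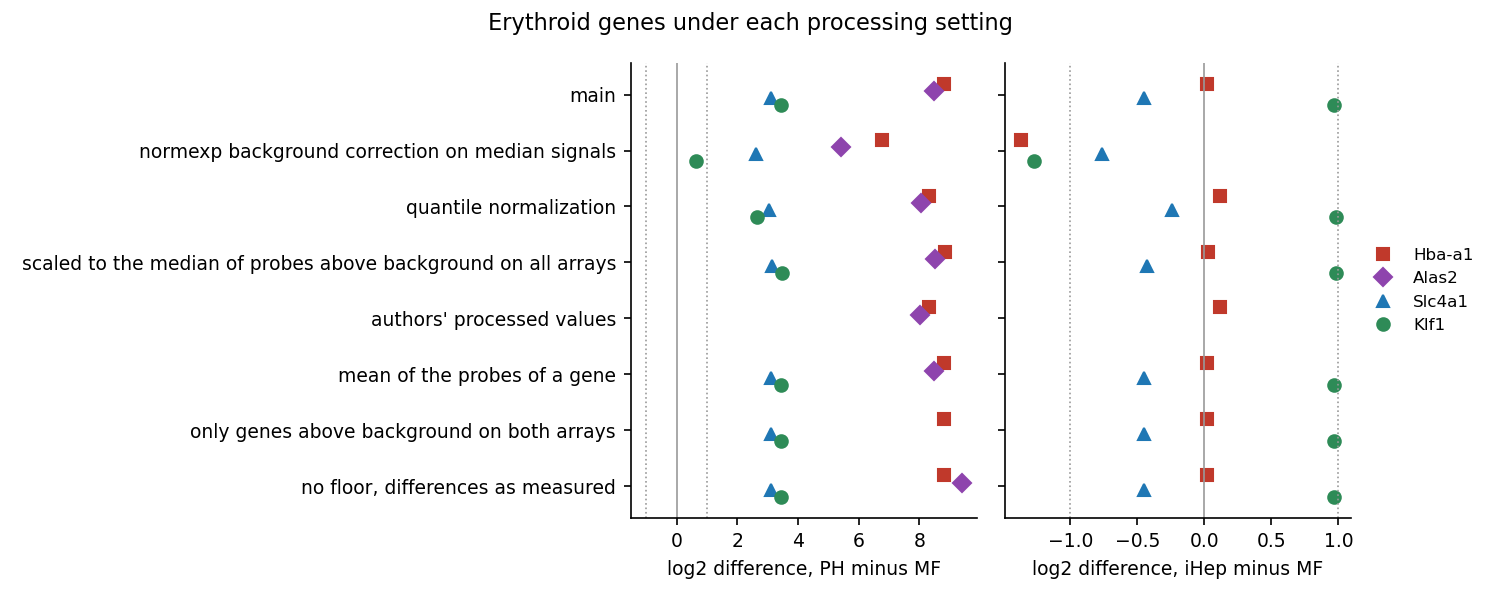
Log2 difference of PH minus MF (left) and iHep minus MF (right) for the 4 members with a signal, under each processing setting (rows). Dotted lines mark 2-fold. Hba-a1, Alas2 and Slc4a1 stayed to the right of 2-fold in PH minus MF under every setting that gave them a value, and Klf1 did so except with normexp, where it was at 0.65.

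The other globin genes followed Hba-a1 as far as the adult genes go. Of 16 globin genes listed, Hba-a1 among them, 14 had a probe and 12 could be compared between PH and MF. Of these, 9 were 2-fold higher in PH (75%, against 30.8% of all genes) and 1 was lower, with a median log2 difference of 3.51. A globin gene not well above background in MF entered only through PH and could not come out lower there. With signal on both arrays required, 3 of 5 were higher and 1 lower, against 25.94% and 28.48% of all genes. Hba-a2, the neighbouring alpha globin gene, read 59.7 in MF, 660.9 in iHep and 121553.9 in PH and was 532.8-fold higher in PH than in MF. The RefSeq windows of 300 bases around the starts of Hba-a1 and Hba-a2 share an identical run of 297 bases, and the genes are near copies of each other. Signal of either may therefore bind both probes, and their values are uncertain as separate measures.

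Adult beta globin was read by 3 probes, named for Hbb-b2, Hbb-bs and Hbb-bt, genes that are also near copies and that differ between mouse strains. None of the 3 was well above background in MF or iHep. In PH they read 20729.4 for Hbb-b2, 388.9 for Hbb-bs and 63065.0 for Hbb-bt. PH was at least 787.2-fold higher than MF for Hbb-b2, at least 14.77-fold for Hbb-bs and at least 2395-fold for Hbb-bt. Alpha and beta globin, both named as targets of the capture step, thus gave strong signals in PH, the array on which Alas2, Slc4a1 and Klf1, which are no targets, were also higher than in MF. How far the capture step differed between the pools was not tested.

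The embryonic and theta globin genes were read by probes of their own. Hbb-bh1, an embryonic beta-like gene, read 8.8 in MF, 168.2 in iHep and 635.1 in PH, and PH was 18.84-fold higher than MF. iHep was 2.768-fold higher than MF for Hbb-bh1, but lower, at -0.81 on the log2 scale, with normexp. Hbb-y, the embryonic epsilon-like gene, read 231.6 in PH and was at least 8.794-fold higher there than in MF, while its other probe was not well above background on any array. Hbb-bh2 and Hbq1a were higher in PH than in MF by at least 1.51 and 2.18 on the log2 scale. With normexp the differences of Hbb-y, Hbb-bh2 and Hbq1a dropped to 0.47, 0.00 and 0.00, below 2-fold, and Hbb-bh2 was also below it with quantile normalization, in the authors' deposited values and by the mean of its probes. Hbq1b differed by at least 0.32, under 2-fold, and the embryonic alpha-like gene Hba-x was not well above background on any array. Over the list, normexp left 6 globin genes higher and 2 lower in PH, and the median was 0.83.

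**Figure D3:**
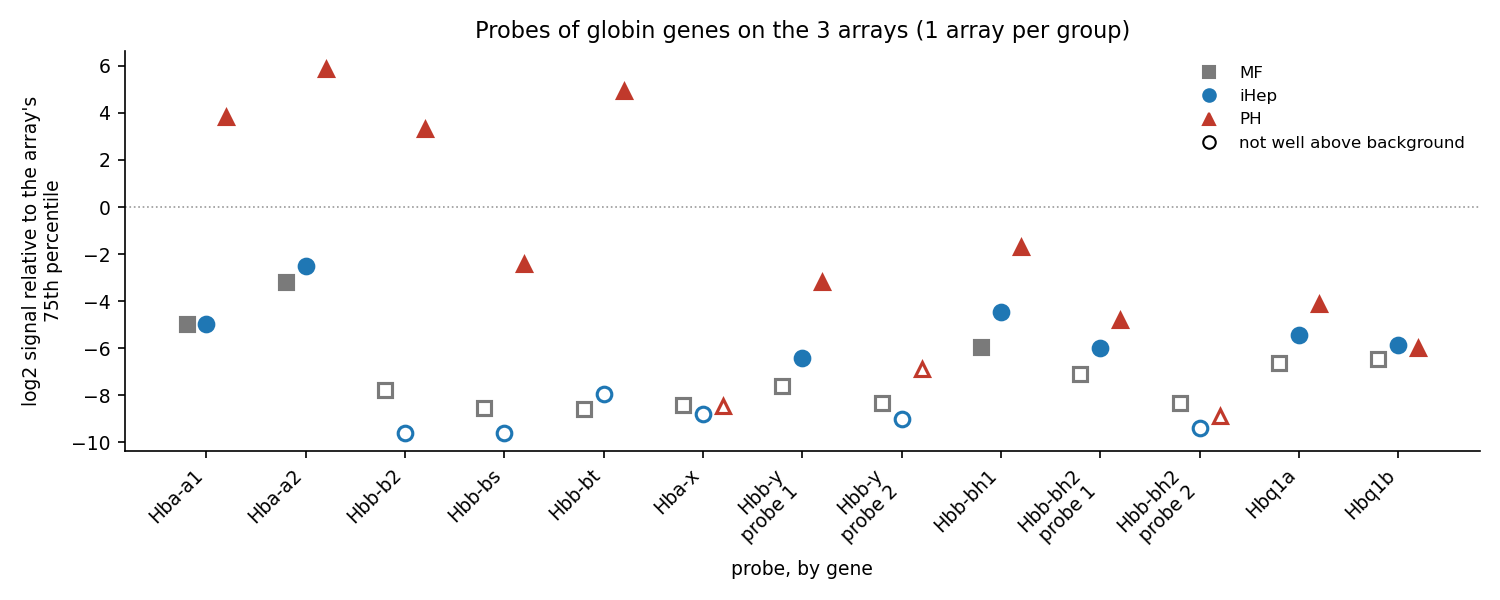
Level of each probe of the hemoglobin genes on the 3 arrays (vertical axis, log2 signal relative to the array's 75th percentile; horizontal axis, probe by gene; open points were not well above background). In PH the probes of Hba-a1, Hba-a2, Hbb-b2 and Hbb-bt stood above 0, while MF and iHep were below -2 for every probe shown.

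The globins outside red cells showed another order. Cygb, a globin of fibroblasts and stellate cells, read 8053.6 in MF, 7359.6 in iHep and 3468.5 in PH, levels of 3.89, 0.97 and 0.74. Relative to the rest of the array it was 8.877-fold lower in PH and 7.542-fold lower in iHep than in MF. Mb, the oxygen store of muscle, lay at -5.98, -6.95 and -6.35, and the neuronal Ngb was not well above background on any array.

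Genes around the members were described through 7 lists of globin, heme, membrane, transcription factor, receptor, and enzyme genes. Beside the members these held 136 genes, 133 with a probe. Between PH and MF, 50 of 127 compared genes were 2-fold higher in PH (39.37%, against 30.8% of all genes) and 24 lower (18.90%, against 25.4%), and the median was 0.46. That median was 0.03 with normexp (35 higher and 29 lower), 0.21 with quantile normalization and 0.04 in the authors' deposited values. Over all genes these settings gave -0.16, -0.12 and -0.16. Under the other processing settings the listed genes had medians of 0.28 to 0.49. Between iHep and MF, 22 of 120 were higher (18.33%, against 19.9%) and 34 lower (28.33%, against 23.4%), and the median was -0.21, so these shares were near those of all genes. Between iHep and PH, 19 of 125 were higher in iHep (15.2%, against 23.3%) and 67 lower (53.6%, against 35.9%), and the median was -1.15. A listed gene not well above background on 1 of 2 arrays entered only through the other and could not be lower there. With signal on both arrays required, 34 of 105 were higher in PH than in MF (32.38%, against 25.94% of all genes). Under that rule 22 were lower (20.95%, against 28.48%). The counts of each list below include the members that belong to it.

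Of the heme synthesis genes 10 of 19 were higher in PH than in MF (52.63%, against 30.8% of all genes) and 0 lower, and the median was 1.03. In iHep 3 of 18 were higher than in MF (16.67%, against 19.9%) and 2 lower (11.11%, against 23.4%). Clpx, a mitochondrial chaperone that activates aminolevulinate synthase, was 10.73-fold higher in PH than in MF. Cpox, a late enzyme of the pathway, was 6.899-fold higher in PH and 5.460-fold higher in iHep, and Alad, the second enzyme, was 4.301-fold higher in PH. Alas1, the form of the first enzyme used in most tissues, had levels of 3.85 in MF, 2.31 in iHep and 5.70 in PH. Unlike Alas2 it was well above background on all 3 arrays, and the PH minus MF difference was 1.86 for Alas1 against at least 8.47 for Alas2. In iHep, Slc25a37, the mitochondrial iron carrier, was 3.455-fold higher than in MF and Abcb6, a porphyrin transporter, 2.387-fold higher, while Ppox was 3.290-fold lower. Alas1 was 2.914-fold lower in iHep than in MF by its brighter probe, and within 2-fold (-0.23 on the log2 scale) by the mean of its probes.

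The list of heme breakdown and capture was split. Of 12 genes, 4 were higher and 3 lower in PH than in MF, shares of 33.33% and 25.0% that were near those of all genes (30.8% and 25.4%). In iHep 2 were higher than in MF (16.67%, against 19.9%) and 5 lower (41.67%, against 23.4%). Hpx and Hp, plasma proteins made by hepatocytes that bind free heme and free hemoglobin, were 682.9-fold and 151.3-fold higher in PH than in MF. Hpx was 7.982-fold higher in iHep than in MF, yet 85.56-fold lower than in PH. Cd163, the macrophage receptor for hemoglobin bound to haptoglobin, exceeded MF by at least 12.08-fold in PH, and 0.92 on the log2 scale, below 2-fold, with normexp. Hmox1, which opens the heme ring, was 7.868-fold lower in PH and 7.743-fold lower in iHep than in MF. In the authors' deposited values, which rest on fewer probes, its PH minus MF difference was -0.35. Lrp1, the receptor for heme bound to hemopexin, was 13.04-fold lower in iHep than in MF and 2.201-fold lower in PH, and Flvcr2 was at least 45.24-fold lower in iHep and 2.450-fold lower in PH. Flvcr1, a heme exporter, was 3.137-fold higher in iHep than in MF.

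**Figure D4:**
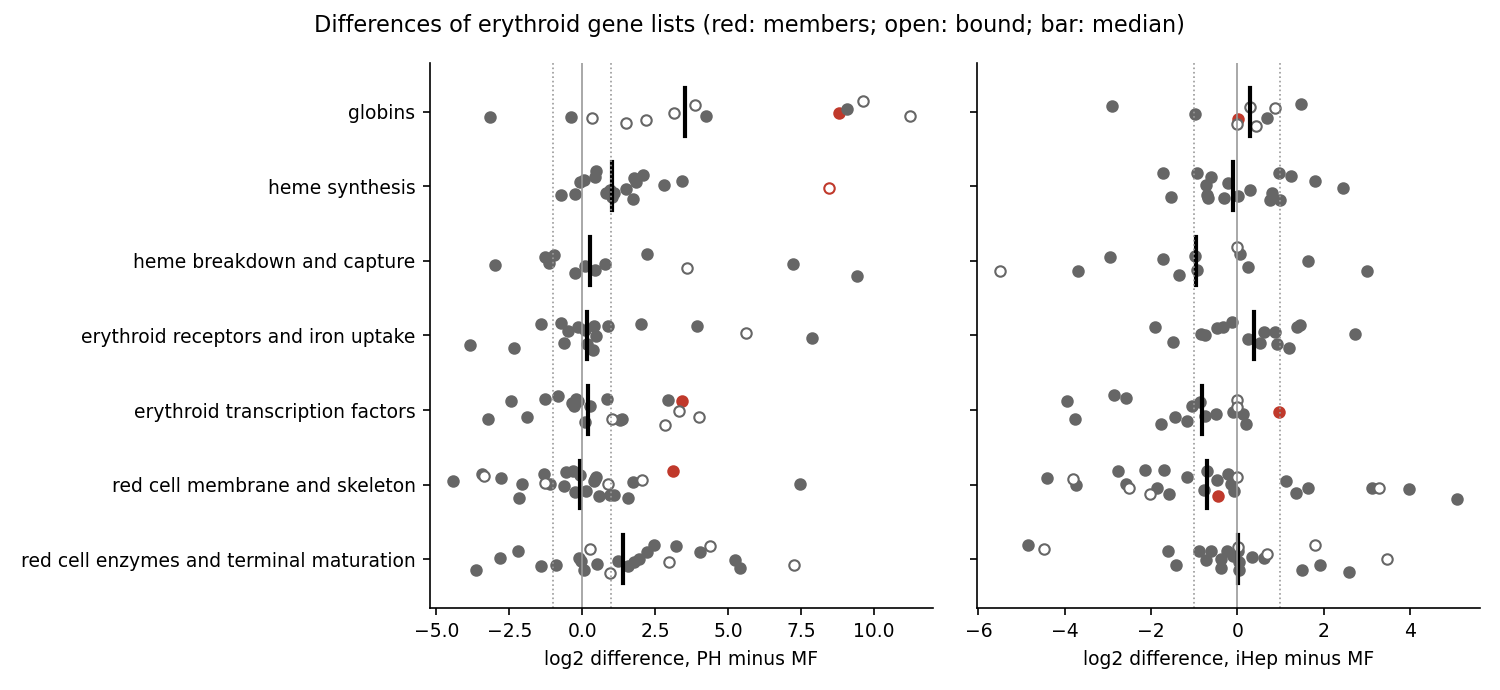
Log2 difference of PH minus MF (left) and iHep minus MF (right) for each compared gene of the 7 lists (rows; members in red, open points are limits, black bars are medians, dotted lines mark 2-fold). In PH minus MF, globins had a median of 3.51, and Hba-a1, Alas2, Slc4a1 and Klf1 lay to the right of 2-fold.

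Membrane and skeleton genes, the list that holds Slc4a1, went both ways. Between PH and MF 6 of 27 were higher (22.22%, against 30.8% of all genes) and 9 lower (33.33%, against 25.4%), and the median was -0.09. Between iHep and MF 7 of 27 were higher (25.93%, against 19.9%) and 12 lower (44.44%, against 23.4%), and the median was -0.70. In the authors' deposited values 1 of 22 was higher and 9 lower in PH than in MF, with -0.71 as the median. Aqp1, a water channel of red cells that bile duct and endothelial cells also carry, was 175.4-fold higher in PH and 34.11-fold higher in iHep than in MF. Rhag, the ammonia channel of the Rh complex, exceeded MF by at least 4.129-fold in PH, a difference that was 0.00 with normexp and under 2-fold with quantile normalization. Ermap was 3.349-fold higher in PH, and 0.19 on the log2 scale by the mean of its probes. Rhd had levels of -2.58 in MF, 1.41 in iHep and -6.00 in PH, and was 15.86-fold higher in iHep and 10.72-fold lower in PH than in MF. Tpm1, a tropomyosin of many cell types, was 21.55-fold lower in PH, and Tmod1, which caps actin in the red cell skeleton, was at least 10.39-fold lower in PH and at least 14.02-fold lower in iHep. In iHep, Add2 was at least 9.750-fold higher than in MF, or 0.43 on the log2 scale with normexp, and Cd59a was 13.29-fold lower.

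Further membrane genes, named after their values were seen, bear on the members. Kel, which carries the Kell antigen, was not well above background on any array. Sptb, the erythroid beta spectrin gene, was above background in MF alone, at -5.31. So the PH array, with strong globin and Alas2 signals, gave no reading for Epb42, Kel or Sptb.

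Transcription factors of the red cell lineage were 2-fold higher in PH than in MF for 8 of 20 (40.0%, against 30.8% of all genes). They were lower for 4 (20%, against 25.4%), with a median of 0.19. Factors not well above background in MF entered only through PH and could not be lower there. Of the 16 with signal on both arrays, 4 were higher and 4 lower, against 25.94% and 28.48% of all genes. Their median was -0.16. In iHep 0 of 18 were higher than in MF, against 19.9% of all genes, and 8 were lower (44.44%, against 23.4%), and the median was -0.81. Bcl11a, which silences embryonic globin genes, was at least 16.05-fold higher in PH. Nfe2 and Sox6 were higher in PH than in MF, at least 9.903-fold for Nfe2 and 7.671-fold for Sox6, and both were below 2-fold with normexp, at 0.53 and 0.52 on the log2 scale. With normexp only 1 of the 20 was higher in PH and 5 lower, and the median was -0.22, and the medians with quantile normalization and in the authors' deposited values were -0.18 and -0.46. Runx1, Gata2 and Tcf3 were 9.475-fold, 5.476-fold and 3.726-fold lower in PH than in MF. Gata2, a factor of early progenitors, was 13.48-fold lower in iHep than in MF, and Lyl1 and Zfpm1, the latter a partner of GATA1, were 15.40-fold and 7.207-fold lower. Gata1, the main erythroid factor, named after its values were seen, was above background in PH alone, at a level of -5.29. It was at least 2.015-fold higher there than in MF, 0.00 on the log2 scale with normexp, and under 2-fold with quantile normalization and in the authors' deposited values. Tal1, its partner, was 15.23-fold lower in iHep than in PH, and Myb at least 14.47-fold lower.

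For receptors and iron uptake genes, 4 of 17 were higher in PH than in MF (23.53%, against 30.8% of all genes) and 3 lower (17.65%, against 25.4%), both shares below those of all genes. In iHep 4 of 16 were higher than in MF (25.0%, against 19.9%) and 2 lower (12.5%, against 23.4%). Kit, the stem cell factor receptor of early progenitors and mast cells, exceeded MF by at least 48.46-fold in PH. Tfr2, a hepatocyte and erythroid sensor of transferrin, was 233.2-fold higher in PH, and Trf, plasma transferrin itself, 15.47-fold higher. Tfrc, the receptor through which erythroid and dividing cells take up iron, lay at -0.12 in MF, 2.60 in iHep and -1.53 in PH. It was 2.664-fold lower in PH than in MF, or -0.92 on the log2 scale by the mean of its probes, opposite in direction to the members compared. In iHep it was 6.596-fold higher than in MF, where 0 of 3 members passed 2-fold in either direction. Epor, the erythropoietin receptor gene, named after its values were seen, lay at -2.19 in MF, -1.27 in iHep and -1.70 in PH, within 2-fold in each comparison. Erfe, the hormone that erythroblasts send to the liver, was 14.38-fold lower in PH than in MF. In iHep, Slc11a2 was 2.742-fold and Cd36 2.623-fold higher than in MF, the former below 2-fold in the authors' deposited values and by the mean of its probes. The ferritin genes Ftl1 and Fth1 were 3.760-fold and 2.825-fold lower, and below 2-fold with quantile normalization and in the authors' deposited values.

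Enzymes and genes of terminal maturation were 2-fold higher in PH than in MF for 13 of 24 (54.17%, against 30.8% of all genes) and lower for 4 (16.67%, against 25.4%), with a median of 1.40. Between iHep and MF 5 of 23 were higher (21.74%, against 19.9%) and 4 lower (17.39%, against 23.4%), and the median was 0.01. Pklr, the pyruvate kinase of liver and red cells, was at least 152.3-fold higher in PH and at least 11.01-fold higher in iHep than in MF, the second being 0.72 on the log2 scale with normexp. Tspo2, an erythroid cholesterol-binding protein, and Tspan33, a tetraspanin of erythroid and B cells, were 42.39-fold and 38.17-fold higher in PH. Tspan33 was also 3.763-fold higher in iHep than in MF. G6pdx, which supplies reducing power in all cells, was 12.52-fold lower in PH than in MF, Hk1, the red cell hexokinase, 4.621-fold lower and Ube2o, which clears proteins from reticulocytes, 7.017-fold lower. Acp5, an acid phosphatase of macrophages, was 28.85-fold lower in iHep than in MF, Tent5c at least 22.19-fold lower and Cat, the catalase gene, 3.063-fold lower.

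Lists of markers for other cells were read beside the members. The members' summed signal was -2.17 in MF, -2.42 in iHep and 4.33 in PH as log2 of the sum in units of the 75th percentile, with Slc4a1 as the largest part in MF and iHep and Hba-a1 in PH. Hepatocyte markers summed to -2.30, 1.20 and 8.56, with all 6 higher in PH than in MF, and fibroblast markers to 9.04, 5.44 and 5.48, with 6 of 8 lower in PH. In iHep all 8 fibroblast markers were lower than in MF, and of the 5 hepatocyte markers compared only Hnf4a passed 2-fold, at 101.1-fold higher. Alb was 1.369-fold higher in iHep than in MF, and the Apoa1 spot of iHep did not clear background. In PH all 8 granulocyte markers were at least 2-fold higher than in MF (sums of -0.07 in MF, 2.08 in iHep and 5.86 in PH). So were all 6 endothelial markers (-0.47, -0.72 and 5.12) and 6 of 7 lymphocyte markers (-0.28, -0.50 and 3.63), against 30.8% of all genes. Markers of any list not well above background in MF entered only through PH and could not be lower there. Those of these lists are named in the next paragraph. With normexp 6 of 8 granulocyte markers, all 6 endothelial and 5 of 7 lymphocyte markers were 2-fold higher in PH, and the granulocyte median was 1.26 in place of 3.50. In iHep, Elane, at a level of 2.03, made up most of the granulocyte sum. S100a9, a granulocyte protein, was at least 1377-fold higher in PH, Cdh5, the cadherin of endothelium, at least 721.5-fold, and Cd3e, a T cell receptor subunit, 20.32-fold. Cd79a, 1 of the lymphocyte markers, was 1.88 higher on the log2 scale in PH but -0.45 with normexp. So genes of several other blood and vessel cells were higher in PH together with the globins. Their part in the erythroid difference was not tested.

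Of the platelet markers, 3 of 8 were higher and 1 lower in PH than in MF, with sums of 1.44 in MF, -0.86 in iHep and 1.21 in PH. Macrophage markers summed to 6.31 in MF, -1.92 in iHep and 6.52 in PH, with 1 of 6 higher and 0 lower in PH than in MF. Genes listed as markers of red pulp macrophages, the splenic cells that take up old red cells, summed to 4.56 in MF, 0.77 in iHep and 4.71 in PH. Whether the signal of these genes in PH came from such cells or from other macrophages was not tested. Of these 6 genes, 3 were higher in PH than in MF, among them Timd4 at least 75.09-fold, and 1 was lower, Vcam1 at 6.727-fold. With normexp 2 of the 6 were higher. In MF 3 of the 8 granulocyte markers (Ltf, Ngp, S100a9), 2 of the 7 lymphocyte markers (Ms4a1, Cd3g) and 2 of the 6 endothelial markers (Cdh5, Tie1) were not well above background, and in PH every marker of these lists was.

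**Figure D5:**
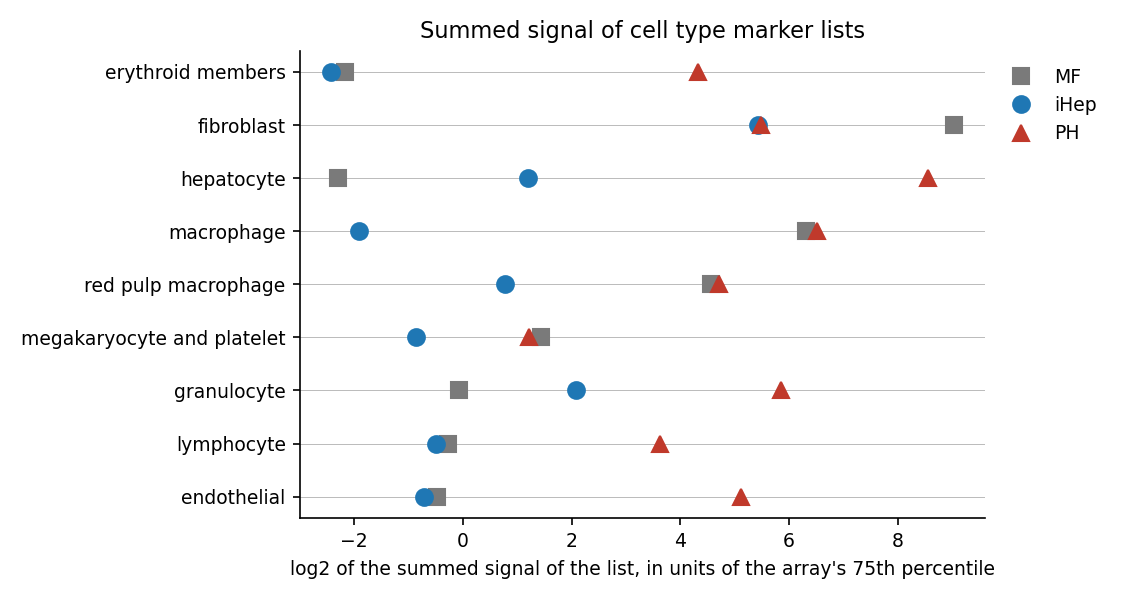
Log2 of the summed signal of the members and of each marker list on the 3 arrays (horizontal axis, in units of the array's 75th percentile; rows, lists; 1 point per array). The members, granulocyte, lymphocyte and endothelial lists were highest in PH, with PH at 4.33, 5.86, 3.63 and 5.12, while macrophage lists were near each other in MF and PH.

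The genes with levels nearest to each member were found among 13927 genes well above background on all 3 arrays, by the distance of the 3 levels. Nearest to Hba-a1 were Gckr, the liver regulator of glucokinase, at a distance of 0.39 with levels of -4.97, -5.00 and 3.42, and Aspg at 0.42. Slc4a1 had Wdsub1 at 0.13 and Trp73 at 0.20 as nearest genes. Klf1 had AU023762 at 0.17 and Ncald at 0.27. Likeness over 3 arrays rests on few points, and none of these genes was on the erythroid lists.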

How the data were processed

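The deposited scanner files hold spot intensity on a linear scale, made by the authors with Agilent Feature Extraction 11.0.1.1 on a design annotated to mm9, per the file headers. The submitters' processing notes name version 9.1. The authors' deposited table holds log2 values for 25845 of the probes used. Its scale and centring are not stated. Its columns correlated at 0.9974, 0.9982 and 0.9943 with the scanner values of MF, iHep and PH and had medians of 7.01, 7.00 and 7.05. It holds Hba-a1, Alas2 and Epb42 but no value for Slc4a1 or Klf1.

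Control spots and outlier spots (190, 230 and 383 of 43020) were left out, and 0 were saturated. Processed intensity was taken as log2 minus the array's 75th percentile. Probes were named by unversioned accession through RefSeq GRCm38.p6: 27076 of 39181 (69.1%) had 1 symbol, 0 several and 12105 none. For 5412 genes with several probes the brightest was used. A spot not well above background gives a limit, "at least", against the higher of its own reading and the array's lowest level well above background (-6.30, -7.32 and -6.89 in MF, iHep and PH).

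Members and lists were chosen with earlier results of these data known. Named genes were all members and globins, the 3 largest differences past 2-fold per list, comparison and direction (a selection of these is given), and the 2 nearest genes. Cd68, Hbb-b1, Hbb-bh0 and Ugt1a1 had no named probe. Some genes of the lists are not reported here by name. On simulated arrays 200 of 200 changed genes were recovered for PH over MF. Every simulated spot counted as above background and all simulated arrays shared the same base profile. The handling of dim spots and of limits was therefore not tried. Calculations used R 4.3.3 with limma 3.58.1, Python 3.11.15, numpy 2.4.6 and pandas 2.3.3. The alternatives were normexp (offset 50, on median signals), quantile normalization, a median scale from the probes that were bright enough everywhere, the authors' values, the mean of a gene's probes, genes above background on both arrays, no floor, and thresholds of 4-fold and 1.5-fold.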

Additional observations from a re-analysis of the deposited data

How the results depend on the processing

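Among the members' differences past 2-fold, 0 reversed direction under the 6 or 7 alternatives that gave a value. Several of these could not change it. Each member has 1 probe, so the mean of probes left its value as it was. Asking for signal on both arrays also left measured differences as they were, but it took out Alas2. The 3 members left had medians of 3.43 for PH minus MF and -3.57 for iHep minus PH. Klf1 in iHep minus MF was within 2-fold at 0.97, so its turn to -1.27 with normexp was not counted. With normexp 2 members (Hba-a1 and Klf1) became 2-fold lower in iHep than in MF, and at 1.5-fold 1 member (Klf1) became higher in iHep. The authors' values hold only 2 of the compared members, and both stayed higher in PH than in MF and lower in iHep than in PH, at counts of 2 and 2. Ranges over the alternatives for PH minus MF were 6.78 to 8.83 for Hba-a1, 5.42 to 9.39 for Alas2, 2.60 to 3.15 for Slc4a1 and 0.65 to 3.46 for Klf1. For iHep minus PH they were -8.80 to -8.15, -10.14 to -7.72, -3.58 to -3.28 and -2.47 to -1.67.

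For the other listed genes, 4-fold gave 9 higher and 18 lower in iHep than in MF, 32 and 15 in PH than in MF, and 11 and 42 in iHep than in PH. The authors' values, with fewer genes, gave 32 higher in PH than in MF and 35 lower in iHep than in PH. Over all genes, normexp gave 2000 higher in iHep and 3174 higher in PH than in MF. The authors' values gave 2601 lower in iHep than in MF, 2966 higher in PH than in MF and 3189 lower in iHep than in PH. At 4-fold the counts were 1192 higher and 1963 lower for iHep over MF, 3262 and 1986 for PH over MF, and 1794 and 3817 for iHep over PH. At 1.5-fold 5103 were higher in iHep than in MF. The share of higher calls was 45.87% for iHep over MF, but 27.72% with normexp. It was 54.84% for PH over MF, but 38.87% with normexp, 43.2% with quantile normalization and 42.0% in the authors' values, and 39.31% for iHep over PH, but 54.98% and 55.82% with the latter 2. Normexp moved the median of all genes to -0.20 and -0.16 for iHep and PH minus MF, quantile normalization to -0.12 for PH minus MF and 0.20 for iHep minus PH, and the authors' values to -0.16 and 0.22 for these. Except where fewer genes or another threshold set the count, the cause was not tested.

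Leaving out an array and a block for the scan were not run, since each group has 1 array. No paired analysis was possible because each group has 1 array. Low signals limit Klf1, Epb42 and the embryonic globins, whose MF spots lie near or below background.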
